A study of Mus musculus with 12 samples.

Results

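Neutral lipid synthesis in periocular skin was followed through 10 genes, *Far1*, *Far2*, *Awat1*, *Awat2*, *Dgat2l6*, *Dgat1*, *Dgat2*, *Mogat1*, *Mogat2* and *Soat1*. They were taken by symbol from the 21247 genes of the count table, all 10 were found, and 9 held at least the 10 counts over all libraries that were needed for testing. RNA-seq was compared between 4 ft/ft and 4 ft/ftMyD88-/- libraries, named as labelled, from mice of a BALB/c background given as 6 weeks old. All carried the ft allele, a spontaneous point mutation that removes the function of filaggrin, without the *ma* (matted) mutation that once went with it. Those labelled ft/ftMyD88-/- were described as a cross to a strain deficient throughout the body in MyD88, the adaptor of toll-like and IL-1 family receptors, which the counts do not show. Libraries of wildtype mice were not analysed here, so no level below is set against normal skin.

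Sebaceous glands of the skin and the meibomian glands of the eyelid fill their cells with neutral lipid and release it by bursting. Fatty acids are first joined to coenzyme A. Fatty acyl-CoA reductases (*Far1*, *Far2*) turn some of these into fatty alcohols, and wax synthases (*Awat1*, *Awat2*) join a fatty alcohol to another acyl chain to give a wax ester, a main lipid of mouse sebum and of the tear film. Diacylglycerol acyltransferases (*Dgat1*, *Dgat2*) add the last acyl chain of a triglyceride, monoacylglycerol acyltransferases (*Mogat1*, *Mogat2*) supply diacylglycerol by a side route, and sterol O-acyltransferase (*Soat1*) makes cholesterol esters. *Awat1*, *Awat2*, *Dgat2l6*, *Mogat1*, *Mogat2* and *Dgat2* belong to a single protein family, while *Dgat1* and *Soat1* belong to another.

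Values per library are CPM, read counts brought to a common library total by the TMM method of edgeR. Fold changes are of ft/ftMyD88-/- over ft/ft, with their standard errors (SE), from the quasi-likelihood test of edgeR, and p-values were adjusted by the Benjamini-Hochberg method over all 20454 genes tested. Libraries held 15802957 to 29255129 counts, and a count of 0 allows up to 0.102 to 0.183 CPM, which covers counting error only. *Myd88* itself was called higher, not lower, in libraries labelled ft/ftMyD88-/- (41.2 ± 7.29 CPM against 30.7 ± 4.74, SD, n = 4 each, log2 fold change 0.42, edgeR's adjusted p = 0.0484). *Flg*, the filaggrin gene that both groups carry mutated, was not called different (242 ± 39.5 against 103 ± 69.8 CPM, edgeR's adjusted p = 0.12). A count per gene does not show whether an exon is missing, so each direction below rests on the labels. The labels give female mice, yet *Xist* was at 34.6 to 66.8 CPM in the libraries labelled ft/ftMyD88-/- and at 0.0429 CPM or less in those labelled ft/ft, while 4 Y-linked genes summed to 132 to 164 CPM in ft/ft libraries and to 1.31 CPM or less in ft/ftMyD88-/-. Genotype and sex therefore cannot be told apart in any difference below. Defining markers of skin were present in every library, with keratinocyte markers summing to 29113 to 37102 CPM in ft/ft libraries and 21080 to 24820 in ft/ftMyD88-/-. Of all genes tested, 12.3% were called lower and 10.9% higher at an adjusted p under 0.05 (2525 and 2239 genes), a split that turned to 1326 lower and 4638 higher when libraries were scaled by size alone.

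In the libraries labelled ft/ftMyD88-/- 4 of the 10 genes fell and none rose. Those that fell were *Awat2* (log2 fold change -0.69), *Far2* (-0.58), *Awat1* (-0.51) and *Dgat2* (-0.29). These are 4 of 9 tested members, beside the 12.3% of all genes called lower and the 23.3% called in either direction, and the median over the 9 was -0.29, beside 0.01 over all genes tested. The count turned to 2 lower (*Awat2*, *Far2*) and 1 higher (*Far1*) without ft/ftMyD88-/- replicate 4, and also to 2 lower and 1 higher with libraries scaled by size alone. DESeq2 kept 4 lower and called 1 higher. The fall was 1.61-fold for the wax synthase *Awat2*, 1.499-fold for the reductase *Far2*, 1.42-fold for *Awat1* and 1.22-fold for *Dgat2*. *Far1*, the other reductase, pointed the other way without passing the test. In bulk tissue, a smaller share of gland cells and less RNA per gland cell cannot be told apart. By histology, the study found larger sebaceous glands in ft/ftMyD88-/- mice and no difference in how many there were. Gland area in sections does not give the share of gland RNA in these libraries, and how they relate was not tested.

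**Figure D1:**
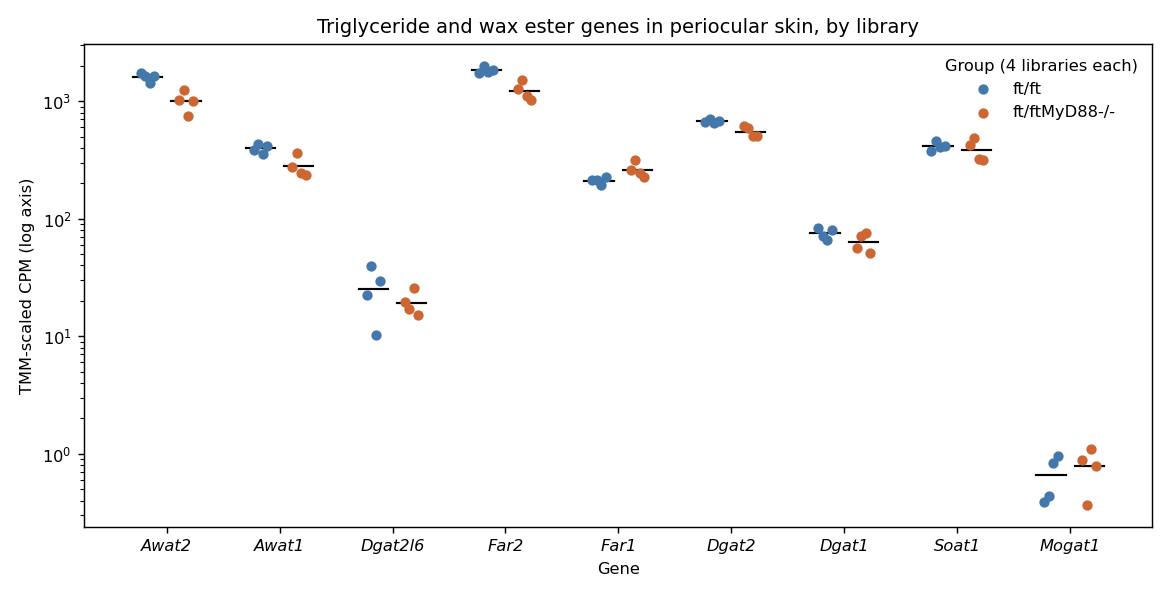
TMM-scaled CPM on a log axis for the 9 tested genes, with a point per library (blue ft/ft, orange ft/ftMyD88-/-, 4 each) and a black line at the group mean. *Awat2* and *Far2* stand highest, and for these and *Dgat2* every ft/ftMyD88-/- point lies under every ft/ft point. *Mogat2*, with 6 counts in all, is not drawn.

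The sequences just before the starts of the genes that the main differences turn on are shown first, because *Awat1* and *Awat2* fell together and because *Far1* and *Far2* carry out the same reaction and differed in their ratio between the groups. They are RefSeq sequences of GRCm38.p6, 5′ to 3′ on the gene's strand, ending at an annotated start except for *Far1* and *Far2*, where only the stretch outside annotated exons and before the gene's first base is given. Capitals mark matches to CCAAT or to its reverse complement ATTGG.
Awat1 (chrX:100571997-100572246, plus strand): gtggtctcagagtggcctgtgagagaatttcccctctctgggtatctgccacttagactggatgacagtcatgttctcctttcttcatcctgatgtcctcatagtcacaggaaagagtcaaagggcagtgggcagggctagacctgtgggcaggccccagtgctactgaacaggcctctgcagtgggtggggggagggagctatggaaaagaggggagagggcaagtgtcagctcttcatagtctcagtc
Awat2, upstream start (chrX:100442718-100442967, minus strand): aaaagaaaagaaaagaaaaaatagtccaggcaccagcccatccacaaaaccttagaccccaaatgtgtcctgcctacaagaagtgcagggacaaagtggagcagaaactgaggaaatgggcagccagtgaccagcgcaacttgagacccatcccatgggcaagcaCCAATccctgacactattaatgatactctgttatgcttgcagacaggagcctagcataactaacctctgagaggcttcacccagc
Awat2, downstream start (chrX:100412588-100412837, minus strand): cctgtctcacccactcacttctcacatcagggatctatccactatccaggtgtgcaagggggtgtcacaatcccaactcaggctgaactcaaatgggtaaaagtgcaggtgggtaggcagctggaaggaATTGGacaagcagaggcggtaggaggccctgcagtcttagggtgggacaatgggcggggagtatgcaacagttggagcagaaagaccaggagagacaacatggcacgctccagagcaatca
Far1 (chr7:113513584-113513718, plus strand): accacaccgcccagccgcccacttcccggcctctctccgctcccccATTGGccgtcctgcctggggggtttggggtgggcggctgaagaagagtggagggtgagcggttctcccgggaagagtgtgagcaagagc
Far2 (chr6:148047166-148047231, plus strand): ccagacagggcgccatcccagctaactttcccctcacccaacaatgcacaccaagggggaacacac

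The whole windows of 250 bases before each start differed in composition. Those of *Far1* and *Far2* were rich in G and C (67.6% and 67.2%, against a median of 52.4% over 32851 promoters of the same length) and held 21 and 17 CpG dinucleotides. Those of *Awat1*, of both *Awat2* starts and of *Dgat2l6* held 0, 1, 3 and 1, with GC contents from 44.8% to 54.8%. CCAAT, on either strand, was found 3 times in the *Far1* window and once before each *Awat2* start. It was not found before *Awat1*, *Dgat2l6* or *Far2*, and 33.85% of all promoters held it. None of these stretches held TATAAA (12.4% of all promoters), AGGTCA (14.0%), a core of many nuclear receptor sites, or CACGTG (6.02%). Of the other genes, *Soat1* and *Mogat1* had an entry in the promoter table, and *Dgat1*, *Dgat2* and *Mogat2* did not. Both *Awat2* windows lie within the span RefSeq gives the gene, and gene counts do not show which start was used. The *Far1* window ends at 113513833, past the gene's first base (113513719), and only the match in capitals above lies before that base. The *Far2* window also holds annotated exon, and the GC and CpG values of both genes cover these parts.

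*Far2* (chromosome 6, 148047416 to 148182758), the fatty acyl-CoA reductase of sebaceous and meibomian gland, was the most abundant of the 10 in CPM. It stood at 1744, 1997, 1773 and 1859 CPM in ft/ft replicates 1 to 4 and at 1272, 1502, 1116 and 1027 CPM in ft/ftMyD88-/- replicates 1 to 4. Every ft/ftMyD88-/- library lay under every ft/ft library, as in 14.2% of all genes tested. The means were 1843 ± 113 and 1229 ± 208 CPM (SD, n = 4 each), which differed by -0.58 as a log2 fold change (SE 0.124, edgeR's adjusted p = 0.00566). The call held in all 16 alternative fits, with log2 fold changes from -0.69 to -0.41.

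*Far1* (chromosome 7, 113513719 to 113571506) is the broadly expressed reductase of peroxisomes, whose alcohols also feed the ether lipids of membranes. It was at 215, 213, 192 and 226 CPM in ft/ft libraries and 259, 318, 243 and 225 in ft/ftMyD88-/-. Only ft/ftMyD88-/- replicate 4 reached into the ft/ft range. The log2 fold change was 0.30 (SE 0.111, edgeR's adjusted p = 0.066), with 2 standard errors on either side spanning 0.08 to 0.53. The value was above 0 in all 16 alternative fits, from 0.20 to 0.48, and passed the threshold in 3 of them, with DESeq2 (adjusted p = 0.0368), with library size alone (edgeR's adjusted p = 0.00868) and without ft/ftMyD88-/- replicate 4 (edgeR's adjusted p = 0.0365). Across the 16 fits that p lay between 0.00868 and 0.178.

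The balance between the reductases could be read within each library, where scaling plays no part. Reads of *Far2* outnumbered those of *Far1* 8.10, 9.39, 9.24 and 8.23 times in ft/ft replicates 1 to 4 and 4.91, 4.73, 4.595 and 4.57 times in ft/ftMyD88-/- replicates 1 to 4. The groups lay far apart against a narrow spread within each. On the log2 scale the ratio was 3.12 ± 0.11 in ft/ft libraries and 2.23 ± 0.05 in ft/ftMyD88-/- (SD, n = 4 each), a difference of -0.89 (two-sided exact permutation test, p = 0.0286, which is the lowest value possible with 4 against 4, and 0.0429 adjusted over 3 ratios). It stayed between -0.93 and -0.86 whichever library was left out, and the groups stayed apart each time. The adjusted exact permutation p rose to 0.0857 without any single ft/ft library or without ft/ftMyD88-/- replicate 3. With 3 against 4 libraries the exact permutation p cannot fall under 0.0286. Its adjustment over 3 ratios also depends on the other ratios, so this rise does not show a weaker *Far2* to *Far1* difference. Counts of genes annotated on the opposite strand were small beside those of the reductases. These matter if the kit that the study's methods name, which does not mark strand, was the one used. How reads shared by overlapping genes were assigned is not known, so small counts do not show that such reads were few. *Far1os*, which lies across 34499 bases of *Far1*, had at most 0.442 CPM in any library, and *Ergic2*, which overlaps *Far2* by 3680 bases, was at 30.2 ± 4.07 CPM in ft/ft libraries and 35.1 ± 4.14 in ft/ftMyD88-/- (SD, n = 4 each).

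**Figure D2:**
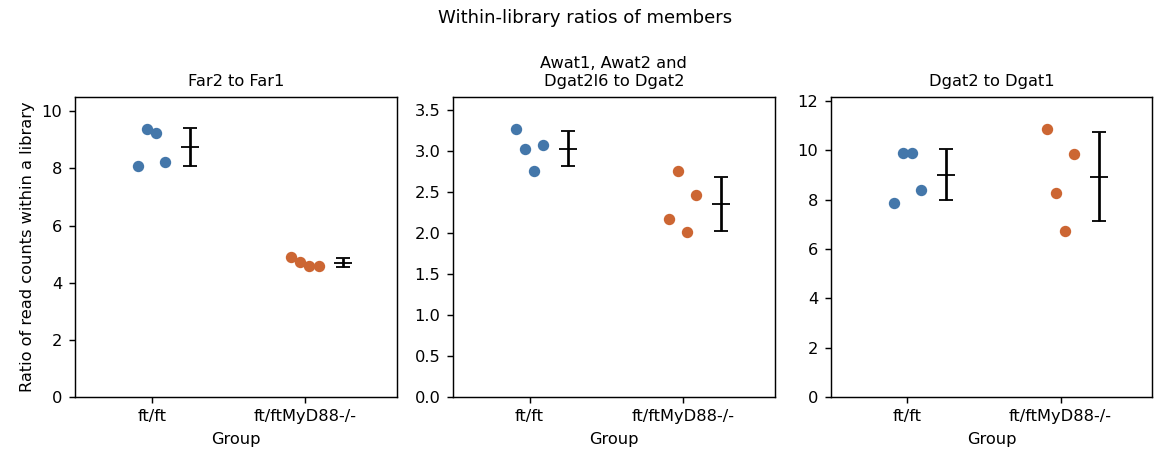
Ratios of read counts within a library, with a point per library, and to the right of the points the group mean with SD (n = 4). The *Far2* to *Far1* ratio lies at 8.10 to 9.39 in ft/ft libraries and 4.57 to 4.91 in ft/ftMyD88-/-, the ratio of *Awat1*, *Awat2* and *Dgat2l6* to *Dgat2* barely separates the groups, and the *Dgat2* to *Dgat1* ratio overlaps.

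*Awat2* (chromosome X, 100402221 to 100494278), the wax synthase best known from meibomian gland, changed most of the 4 genes that fell. It was at 1752, 1653, 1436 and 1633 CPM in ft/ft libraries and at 1032, 1239.9, 745 and 996 in ft/ftMyD88-/-. Each ft/ftMyD88-/- library lay under all ft/ft libraries, and replicate 3 was the lowest of its group. The means of 1618 ± 132 and 1003 ± 203 CPM (SD, n = 4 each) gave a log2 fold change of -0.69 (SE 0.141, edgeR's adjusted p = 0.0047), and the call held in all 16 alternative fits, from -0.80 to -0.51. Its neighbour *Awat1* (chromosome X, 100572247 to 100578206), also a wax synthase, was at 384, 433, 352 and 417 CPM in ft/ft libraries and 274, 359, 247 and 237 in ft/ftMyD88-/-. Only ft/ftMyD88-/- replicate 2 reached above the lowest ft/ft library. Its log2 fold change was -0.51 (SE 0.131, edgeR's adjusted p = 0.0157). The fall lost its call in 2 of the 16 alternative fits, with library size alone (-0.33, edgeR's adjusted p = 0.084) and without ft/ftMyD88-/- replicate 4 (-0.42, edgeR's adjusted p = 0.0531), in a range of adjusted p from 0.00287 to 0.084.

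*Dgat2l6* (chromosome X, 100524838 to 100546108), the gene between *Awat2* and *Awat1* and an acyltransferase of the same family, was much lower and more variable. It stood at 22.4, 39.5, 10.3 and 29.29 CPM in ft/ft libraries and 19.7, 17.1, 25.6 and 15.1 in ft/ftMyD88-/-. The ft/ft libraries alone covered the whole range of the other group. No difference was detectable, with a log2 fold change of -0.39 (SE 0.388, edgeR's adjusted p = 0.517) and 2 standard errors reaching from -1.17 to 0.38. All 3 genes lie on the X chromosome, whose dosage differs between the sexes before inactivation, and sex-linked transcripts separated the same libraries. Among 534 tested X-linked genes 15.2% were called lower and 7.87% higher, beside 14.4% and 12.6% of 15259 autosomal genes matched to a RefSeq symbol.

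*Dgat2* (chromosome 7, 99153663 to 99182713), the diacylglycerol acyltransferase tied to lipid droplets, was at 660.4, 704, 652 and 678 CPM in ft/ft libraries and 611, 586, 506 and 506 in ft/ftMyD88-/-. The groups did not overlap, yet the gap between them was narrow. The log2 fold change was -0.29 (SE 0.0947, edgeR's adjusted p = 0.0463), just inside the threshold. Of the 16 alternative fits 6 kept the call and all 16 kept the direction, with adjusted p from 0.0195 to 0.409 and the smallest difference, -0.11, under library size alone. Any of 7 libraries, when left out, removed the call (all but ft/ftMyD88-/- replicate 1), with log2 fold changes from -0.33 to -0.23 over the 8 such fits. *Dgat1* (chromosome 15, 76502012 to 76512021), the structurally unrelated enzyme of the same reaction, was at 84.0, 71.1, 66.0 and 80.7 CPM in ft/ft libraries and 56.2, 70.9, 75.1 and 51.3 in ft/ftMyD88-/-. Its groups overlapped (log2 fold change -0.25, SE 0.128, edgeR's adjusted p = 0.177, 2 standard errors from -0.51 to 0.0049).

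The ratio of *Dgat2* to *Dgat1* reads was 7.86 to 9.90 in ft/ft libraries and 6.74 to 10.9 in ft/ftMyD88-/-, with no detectable difference (-0.03 on the log2 scale, two-sided exact permutation test, p = 0.857). The summed reads of *Awat1*, *Awat2* and *Dgat2l6* were 2.76 to 3.27 times those of *Dgat2* in ft/ft libraries and 2.01 to 2.76 times in ft/ftMyD88-/-. The highest ft/ftMyD88-/- library, replicate 2, all but touched the lowest ft/ft library, replicate 3. The log2 ratio was lower by a mean of 0.37 in ft/ftMyD88-/- (1.596 ± 0.10 against 1.22 ± 0.20, SD, n = 4 each, two-sided exact permutation test, p = 0.0286, adjusted p = 0.0429). The adjusted p rose to 0.0857 without any single ft/ft library or without ft/ftMyD88-/- replicate 3, with differences from -0.45 to -0.30.

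*Mogat1* (chromosome 1, 78511060 to 78606964) was nearly silent, with 9, 12, 15 and 25 counts in ft/ft libraries and 20, 10, 32 and 13 in ft/ftMyD88-/-. These were 0.386 to 0.959 CPM and 0.367 to 1.09 CPM, without a detectable difference (log2 fold change 0.27, SE 0.40, edgeR's adjusted p = 0.676). *Mogat2* (chromosome 7, 99219084 to 99238611), next to *Dgat2* on the chromosome, gave 1, 2, 2 and 0 counts over the ft/ft libraries and 1, 0, 0 and 0 in ft/ftMyD88-/-, so that no fold is given. The study's discussion names *Mogat2* among lipogenic genes lowered in its RNA-seq, which so few counts can neither bear out nor contradict. *Soat1* (chromosome 1, 156428108 to 156474328), which esterifies cholesterol, was at 376, 456, 404 and 412 CPM in ft/ft libraries and 422, 488, 324 and 318 in ft/ftMyD88-/-. Replicates 1 and 2 of ft/ftMyD88-/- lay within or above the ft/ft range and replicates 3 and 4 under it, and the log2 fold change was -0.09 (SE 0.136, edgeR's adjusted p = 0.692, 2 standard errors from -0.36 to 0.19).

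**Figure D3:**
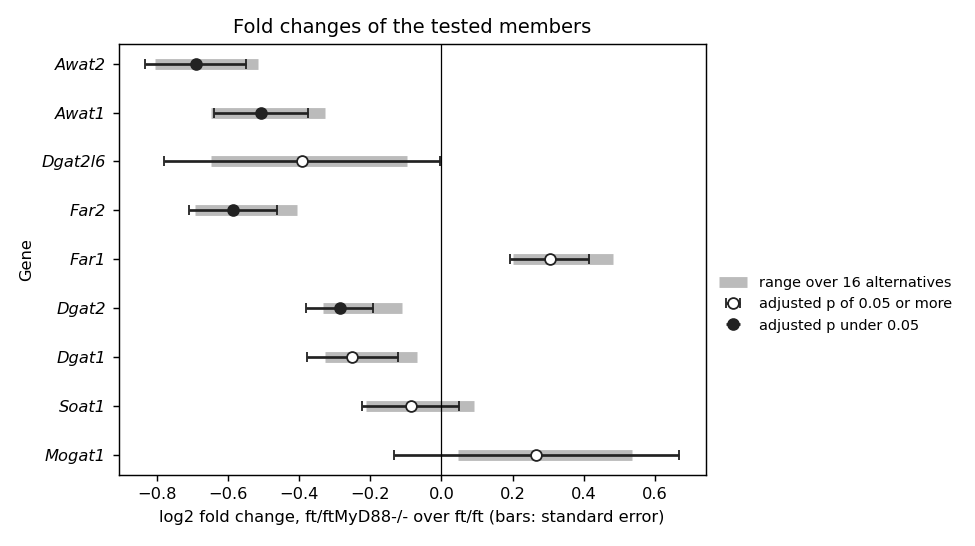
Log2 fold changes of ft/ftMyD88-/- over ft/ft with standard errors for the 9 tested genes, filled where the adjusted p was under 0.05, with grey bars for the range over 16 alternative fits. The grey bars of *Awat2*, *Awat1* and *Far2* stay left of 0, that of *Far1* stays right of 0, and only that of *Soat1* crosses 0.

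Where reads come from the whole transcript, as with the kit of the study's methods, levels of different genes are compared per length. The labels describe another protocol, so it is not settled that reads grew with length here. By mean CPM in ft/ft libraries, *Far2* (1843) stood above *Awat2* (1618), and *Soat1* (412) above *Awat1* (396). Divided by the merged exon length of each gene, the ft/ft means ran from *Awat2* (761 ± 62.1 CPM per kilobase, SD, n = 4) through *Awat1* (285 ± 25.7), *Far2* (252 ± 15.5), *Dgat2* (219 ± 7.43), *Soat1* (42.1 ± 3.37), *Far1* (26.2 ± 1.77), *Dgat1* (24.7 ± 2.73) and *Dgat2l6* (5.35 ± 2.59) to *Mogat1* (0.42) and *Mogat2* (0.0309). The library ranges of *Awat1* and *Far2* overlapped, as did those of *Far1* and *Dgat1*, and the other neighbours in this order did not. In ft/ftMyD88-/- *Awat2* still led, at 472 ± 95.5 CPM per kilobase, and *Dgat2* (179 ± 17.7) stood above *Far2* (168 ± 28.5) in 3 of 4 libraries with overlapping ranges. With the longest coding transcript as the length, *Awat2* stayed at rank 1 in both groups, while *Awat1* moved from rank 2 to 4 and *Far2* to rank 2.

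A list of 9 sebocyte markers served as a yardstick for the glands (*Mc5r*, *Scd1*, *Scd3*, *Elovl3*, *Krt79*, *Cidea*, *Pparg*, *Fabp5* and *Fasn*). Of these, 4 were lower, 1 was higher and 4 did not pass the test, and *Mc5r*, a melanocortin receptor of differentiated sebocytes, was at 14.2 CPM in ft/ft libraries and 9.78 in ft/ftMyD88-/- (log2 fold change -0.54, SE 0.148, edgeR's adjusted p = 0.0211). Their mean log2 CPM was 8.91 to 9.13 in ft/ft libraries and 8.58 to 8.90 in ft/ftMyD88-/-. It joins markers that differed in direction, with log2 fold changes from -1.06 (*Scd3*) to 0.85 (*Fabp5*). Values relative to it therefore depend on the markers chosen, and a mean without *Fabp5* was not tried. Relative to that mean, *Far2* was lower by 0.31 on the log2 scale (1.81 ± 0.08 against 1.496 ± 0.11), *Awat2* lower by 0.43 (1.62 ± 0.10 against 1.19 ± 0.26), and *Far1* higher by 0.58 (-1.31 ± 0.04 against -0.74 ± 0.10; SD, n = 4 each). In these 3 genes the groups did not overlap, with a two-sided exact permutation p of 0.0286 each, the lowest possible with 4 against 4. Adjusted over the 9 genes it became 0.0857 and so failed the correction. With that lowest p in only 3 of the 9 genes no adjusted p could pass, so this test could not have called them. Of all genes tested, 3.88% lay without overlap below and 25.9% without overlap above on this scale, so a separation upwards like that of *Far1* was common. *Dgat2* differed by -0.01 and *Dgat1* by 0.02 on this scale (exact permutation p = 0.914 and 0.886), and *Awat1* by -0.24 (exact permutation p = 0.114).

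Markers of some other cells differed too, and their part in the values above was not tested. Skeletal muscle markers were lower in 8 of 10 genes, with sums of 10317 to 14052 CPM in ft/ft libraries and 3950 to 7585 in ft/ftMyD88-/-, and *Ckm* at 821 and 383 CPM. Keratinocyte markers were lower in 6 of 8 genes and fibroblast markers in 3 of 6 (sums of 14018 to 29056 CPM and 6962 to 10330). Neutrophil markers summed to 21.5 to 250.03 CPM in ft/ft libraries and 399 to 958 in ft/ftMyD88-/-, with 1 of 4 tested genes called higher, and macrophage markers to 293 to 425 and 342 to 508 CPM, with 1 of 6 called higher. Of 5 lacrimal gland markers 3 were in the table, 1 lower and 1 higher, with sums of 75.1 to 94.8 and 42.2 to 76.0 CPM. Fat cells also make triglyceride with *Dgat1* and *Dgat2*. None of 10 adipocyte markers was called, the sums of 1438 to 3047 and 1207 to 2759 CPM overlapped, and *Adipoq* was at 87.6 ± 38.0 CPM in ft/ft libraries and 84.2 ± 48.5 CPM in ft/ftMyD88-/- (SD, n = 4 each).

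The steps before and after the final esterification were read from 6 further gene lists. Of 13 genes that build the glycerol backbone up to diacylglycerol 6 were lower and none higher, with a median log2 fold change of -0.36, beside the 12.3% of all genes called lower and 10.9% called higher. With scaling by library size alone only 2 of the 13 were lower. *Gpat2* fell most (-1.52, SE 0.472, edgeR's adjusted p = 0.039) from a level of only 1.93 CPM. The lipins *Lpin1*, *Lpin2* and *Lpin3*, which release the diacylglycerol that *Dgat1* and *Dgat2* use, lay between -0.06 and 0.16 and none was called.

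Fatty acid uptake and activation supplies the acyl-CoA that all of the esterifying enzymes share. Of 12 tested genes 6 were lower and 1 higher, with a median of -0.43, and with library size alone 4 were lower and 2 higher. *Acsbg1*, an acyl-CoA synthetase, fell from 366 to 183 CPM (-0.995, SE 0.0949, edgeR's adjusted p = 6.16e-05), and *Slc27a6*, a fatty acid transport protein, rose from 13.5 to 27.9 CPM (1.04, SE 0.265, edgeR's adjusted p = 0.0211). Among lipid droplet proteins 7 of 11 tested were lower and none higher (median -0.42), which became 3 lower and 1 higher with library size alone. This list shares genes with the marker lists. *Cidea*, also a sebocyte marker, was among those lower, and *Plin1*, *Plin4* and *Cidec*, also adipocyte markers, were not called. The largest fall was in *Fitm1* (-1.20), a droplet protein best known from muscle, whose markers were also lower. *Plin2*, the coat protein of droplets in most cells, named here after its values were seen, fell from 849 to 634 CPM (-0.42, SE 0.116, edgeR's adjusted p = 0.0213).

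Of 11 lipolysis genes 2 were lower and none higher, with a median of 0.01 (1 lower and 1 higher with library size alone), and lists were not tested against each other. *Ces1d*, a carboxylesterase, fell most (-1.26), while *Pnpla2*, the first triglyceride lipase (-0.43), and *Lipe*, the hormone-sensitive lipase (-0.20), did not pass. The other genes of the list are named here after their values were seen. *Nceh1* (-0.41) was called lower and *Pnpla5* (-0.53) was not called. *Lpl* (0.20), *Abhd5* (0.20), *Pnpla3* (0.16), *Mgll* (0.15), *Lipa* (0.10) and *G0s2* (0.01) lay above 0, and none was called. *Lipe* is also an adipocyte marker of the list above. Of 8 ether lipid genes 4 were lower and 1 higher (median -0.27), a balance that turned to 1 lower and 2 higher with library size alone. *Gnpat*, which makes the acyl precursor of ether lipids, fell (-0.61, SE 0.0859, edgeR's adjusted p = 0.00057), and *Agps*, which exchanges that acyl chain for a fatty alcohol made by *Far1* or *Far2*, rose (0.26, SE 0.085, edgeR's adjusted p = 0.0436). Among 6 other ester-forming enzymes 2 were lower and 1 higher (median 0.03), or 1 and 1 with library size alone. *Lpcat3*, which places polyunsaturated chains in phospholipids, fell from 322 to 164 CPM (-0.98), and *Lpcat1* rose (0.33).

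**Figure D4:**
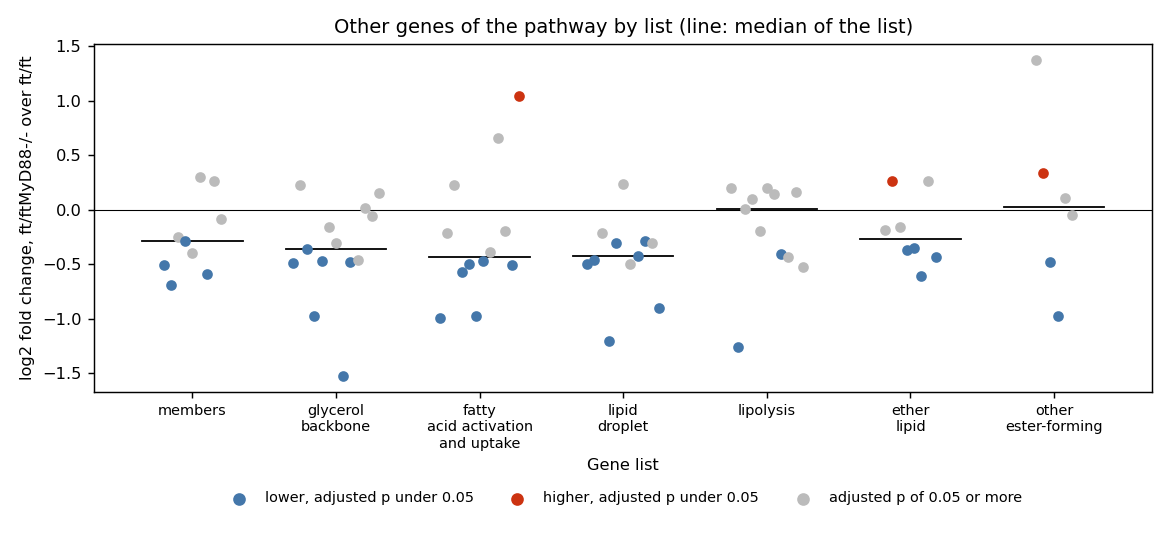
Log2 fold change of ft/ftMyD88-/- over ft/ft for each tested gene of the members and of 6 other lists, blue where called lower, red where called higher and grey otherwise, with a line at each list's median. The medians lie between -0.43 and 0.03, and called genes sit mostly under 0.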

How the data were processed

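RNA-seq of periocular skin was deposited as read counts per gene, whole numbers that the authors had not normalized, for 4 ft/ft and 4 ft/ftMyD88-/- libraries. The study's methods name a TruSeq v2 mRNA kit, which does not mark strand, HISAT and TopHat2 alignment to GRCm38.p6 and HTSeq counting. The labels instead describe a protocol for fixed tissue and Cell Ranger, and the whole-number bulk counts do not settle which applied. Labels place each library in its group. Libraries of 4 wildtype samples were not analysed here.

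Genes whose counts over the 8 libraries came to 10 or more (20454 of 21247) were fitted with edgeR 4.0.16 in R 4.3.3 (TMM scaling, quasi-likelihood test, 2 groups, Benjamini-Hochberg adjustment over all genes tested, threshold 0.05). Standard errors are the absolute log2 fold change divided by the square root of F. DESeq2 1.42.0, limma 3.58.1 (voom), other scalings and filters, a replicate block and leaving out each library were the alternatives. On simulated data of 4 against 4 libraries the test called 200 of 200 genes changed 4-fold and 14 unchanged ones. The changed genes were well counted and all genes shared a common dispersion. Smaller changes, such as those of the members, were not simulated, so the simulation does not show how often these would be found. Levels per kilobase used merged GENCODE M21 exons. Ratios within libraries, and log2 CPM (prior count 2) relative to sebocyte markers, were tested by exact permutation. No 2 libraries of a group agreed within sampling noise.

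The members and gene lists were chosen with earlier results of these data known. The text names all members, and in each pathway list the called genes with the largest fall and rise. Of genes acting on a substrate or product of a called member only some are named. These include the lipins and the lipolysis genes, while other called acyl-CoA synthetases are not named. Markers are given as list summaries with *Adipoq*, *Mc5r* and *Ckm*. Exceptions are stated where they occur. *Gpat3* was matched as *Agpat9* and *Selenoi* as *Ept1*, and *Cideb*, *Slc27a5*, *Ly6g*, *Retnlg*, *Pip* and *Prr27* were not analysed here. The study describes 4 mice of each genotype for the RNA-seq, and the 4 libraries of a group were taken as replicates.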

Additional observations from a re-analysis of the deposited data

How the results depend on the processing

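The directions of *Awat2*, *Awat1*, *Far2*, *Far1*, *Dgat2*, *Dgat1*, *Dgat2l6* and *Mogat1* held in all 16 alternative fits, while *Soat1* was below 0 in 13 and above 0 in 3 (0.091 with library size alone, and from -0.21 to 0.0080 over the fits without a library). Values close to 0 also changed sign: relative to sebocyte markers without *Cidea*, *Pparg* and *Fasn*, *Dgat1* was at -0.039 and *Dgat2l6* at -0.035, and without a library *Dgat1* ran from -0.081 to 0.096, *Dgat2* from -0.036 to 0.020 and *Dgat2l6* from -0.31 to 0.27. Scaling by library size alone moved the median log2 fold change of all genes by 0.18 and changed most: 4638 genes were called higher and 1326 lower (2239 and 2525 with TMM), and of the members 1 was higher and 2 lower. Under that scaling the ether lipid list had 2 higher and 1 lower, fatty acid activation and uptake 2 higher, the glycerol backbone 2 lower, lipid droplets 1 higher and 3 lower, lipolysis 1 higher and 1 lower, and the other ester-forming enzymes 1 lower. DESeq2 called 1 member higher, *Far1*.

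Leaving out a library gave 1462 to 2260 genes called higher (1462 without ft/ft replicate 4) and 1851 to 2408 lower, with 0 to 1 members higher and 2 to 4 lower (1 and 2 without ft/ftMyD88-/- replicate 4). The log2 difference of the *Far2* to *Far1* ratio ran from -0.93 to -0.86, that of the wax synthases to *Dgat2* from -0.45 to -0.30, and that of *Dgat2* to *Dgat1* from -0.13 to 0.10. The cause of these changes was not tested.

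Samples with the same replicate number did not deviate together (correlations of -0.146, 0.0251, 0.0146 and -0.0169 for numbers 1 to 4), and the main fit did not pair them. With the replicate block 3 members were called lower. Paired by number, the ratios of *Far2* to *Far1* (-0.89) and of the wax synthases to *Dgat2* (-0.37) had an adjusted exact permutation p of 0.1875, and 4 pairs cannot give a p under 0.125. *Mogat1* and *Mogat2* are limited by their counts.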

Other observations

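The sebocyte list held other lipid genes of the gland with differing values, and the genes below were chosen after their values were seen. *Scd1* and *Scd3*, desaturases that place the double bond of monounsaturated fatty acids, fell from 13795 ± 923 to 8763 ± 1742 CPM (log2 fold change -0.65, edgeR adjusted p = 0.00842) and from 534 ± 67.1 to 257 ± 64.2 CPM (-1.06, edgeR adjusted p = 0.00133; SD, n = 4 each). *Fabp5*, a fatty acid binding protein also abundant in keratinocytes, rose from 774 ± 70.5 to 1395 ± 446 CPM (0.85, edgeR adjusted p = 0.0083). *Elovl3*, an elongase of very long chains, was at 608 ± 31.7 and 687 ± 103 CPM (0.18, edgeR adjusted p = 0.273), and *Krt79*, a keratin of the gland duct, at 2420.4 ± 178 and 2405 ± 159 CPM (-0.01, edgeR adjusted p = 0.959).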
